A study of Mus musculus with 9 samples.

Results

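Cyclin-dependent kinase inhibitors are the proteins that stop cells from passing through the division cycle. Among them, p21, encoded by Cdkn1a, stands downstream of the tumour suppressor p53. Transcripts of 10 genes were taken by name: Cdkn1a, Cdkn1b and Cdkn1c of the CIP/KIP family, Cdkn2a, Cdkn2b, Cdkn2c and Cdkn2d of the INK4 family, and Trp53, Mdm2 and Ccng1 of the p53 axis. Of these, 9 were measured among 22180 genes, each by 1 probe set whose only annotated symbol was that gene. No such probe set was matched for Trp53, which is not analysed here.

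CIP/KIP proteins bind complexes of cyclins with their kinases, chiefly the cyclin E and cyclin A complexes, and block them. INK4 proteins bind CDK4 and CDK6 and keep D-type cyclins from activating them, so that the retinoblastoma proteins stay active and E2F target genes stay off. p53 is a transcription factor that induces Cdkn1a, Mdm2 and Ccng1. Mdm2 in turn marks p53 for destruction, which closes a feedback loop. Polycomb complexes hold the locus of Cdkn2a and Cdkn2b silent in most young cells.

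The cells came from mouse embryonic stem cells with a transgene in which the Afp promoter drives green fluorescent protein, a line shared by all groups. They were grown as embryoid bodies on gelatin in serum medium and sorted by flow cytometry for the Afp reporter after 4, 7 or 21 days, with 3 arrays per day. Afp marks visceral endoderm and fetal liver. A group holds whichever cells the sort for that reporter kept, and reporter-negative cells are not analysed here. The labels do not say that arrays of a day came from separate cultures, so the tests speak to the scatter among these arrays, and that scatter may be only technical.

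Values are log2 signals of the robust multi-array average (RMA), given below array by array in the order of replicates 1, 2 and 3. A log2 difference of 1 is a doubling, and levels are not compared between genes because probe sets differ in brightness. Changes are given with the standard error (SE) of a limma model fitted to all genes and all 9 arrays, and a gene rose or fell where its Benjamini-Hochberg adjusted p was under 0.05. A signal counts as above background where its daily mean exceeded the 95th percentile of 1105 olfactory receptor genes, which was 6.06, 6.04 and 6.04 on days 4, 7 and 21. By that measure 8 of the 9 genes were above background on each day, and Cdkn2c was below it throughout.

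Arrays correlated at 0.981 to 0.990 within a day across probe sets, which are not independent replicates, and no pair was identical. Of 12 endoderm markers, 7 were above background on day 4, 11 on day 7 and 12 on day 21. Afp itself, the gene behind the sort, had a day 4 mean of 5.72 ± 0.18 (SD, n = 3), which was below background, and means of 10.60 ± 0.07 and 13.07 ± 0.11 on days 7 and 21. The day 4 arrays therefore do not show Afp expression in cells sorted for its reporter, and the day 4 group may not match the later ones in kind. Stromal markers rose for 8 of 9 genes between days 7 and 21, and the sum of their linear signals went from 864 to 992 on the day 7 arrays to 6880.3 to 14172 on the day 21 arrays. Dcn and Lum, the stromal proteoglycans, were below background on days 4 and 7. All 5 measured squamous and urothelial markers (Krt14, Krt15, Krt17, Upk1b and Trp63) were below background on days 4 and 7 and rose by day 21, with summed signals of 232 to 270 on day 7 and 9151 to 10896 on day 21. Of 6 leukocyte and red cell markers Cd68 alone was above background, and it rose by day 7 (0.89 ± 0.13). Lyz2 was below background on every day and was called higher on day 21 than on day 7 (1.07 ± 0.17). Ptprc, Adgre1, Hbb-y and Hba-x were below background on every day and gave no call after day 7. On day 21, 3 of 5 pluripotency markers were lower than on day 4 and 1 was higher. Nanog had means of 8.59, 7.55 and 6.10 on days 4, 7 and 21, and Sox2 had 6.78, 8.12 and 8.57. Of 6 neural markers, 3 were lower and 0 higher on day 21 than on day 4, and of 5 endothelial markers, 1 was lower (Kdr, 8.97 to 6.90) and 0 higher. By day 7, 1 neural marker rose and 2 fell, and 2 endothelial markers rose and 1 fell. Between days 7 and 21, 1 neural marker rose (Map2, 1.35 ± 0.15) and 2 fell, and 3 endothelial markers fell and 0 rose. In such sorted bulk RNA, fewer cells of a type and less RNA per cell cannot be told apart.

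The 250 bases before the annotated starts of Cdkn1a, Ccng1, Mdm2, Cdkn2a and Cdkn2b are shown because these 5 genes rose between days 7 and 21 and because Cdkn1a, Ccng1 and Mdm2 are known targets of p53. Sequences are from RefSeq (mouse build GRCm38.p6), run 5′ to 3′ on the gene's own strand and end 1 base before the start. Capitals mark the 10-base p53 consensus decamer, a 20-base p53 site of 2 such decamers with at most 1 mismatch, and the E2F-type motif TTTNNCGC, searched on both strands. The windows are chr17:29090729-29090978 (plus strand) for the upstream start of Cdkn1a, chr11:40755287-40755536 (minus strand) for Ccng1, chr10:117710759-117711008 (minus strand) for Mdm2, chr4:89294620-89294869 (minus strand) for the upstream start of Cdkn2a, from which the p19ARF transcript begins, and chr4:89311033-89311282 (minus strand) for Cdkn2b.
Cdkn1a upstream start: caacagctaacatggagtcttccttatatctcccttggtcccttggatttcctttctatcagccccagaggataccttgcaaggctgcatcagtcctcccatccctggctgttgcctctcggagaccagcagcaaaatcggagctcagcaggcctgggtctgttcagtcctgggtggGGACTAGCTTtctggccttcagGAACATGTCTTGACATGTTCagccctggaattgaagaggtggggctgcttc
Ccng1: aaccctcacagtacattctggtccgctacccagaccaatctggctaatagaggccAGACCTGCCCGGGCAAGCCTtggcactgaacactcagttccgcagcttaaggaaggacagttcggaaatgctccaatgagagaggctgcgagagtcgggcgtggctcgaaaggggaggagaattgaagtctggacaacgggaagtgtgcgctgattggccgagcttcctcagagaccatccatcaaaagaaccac
Mdm2: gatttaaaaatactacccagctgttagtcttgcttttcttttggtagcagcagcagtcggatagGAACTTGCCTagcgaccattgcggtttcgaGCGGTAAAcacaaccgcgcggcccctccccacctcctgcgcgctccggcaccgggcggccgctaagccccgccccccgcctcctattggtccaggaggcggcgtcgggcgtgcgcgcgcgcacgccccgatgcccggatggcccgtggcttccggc
Cdkn2a upstream start: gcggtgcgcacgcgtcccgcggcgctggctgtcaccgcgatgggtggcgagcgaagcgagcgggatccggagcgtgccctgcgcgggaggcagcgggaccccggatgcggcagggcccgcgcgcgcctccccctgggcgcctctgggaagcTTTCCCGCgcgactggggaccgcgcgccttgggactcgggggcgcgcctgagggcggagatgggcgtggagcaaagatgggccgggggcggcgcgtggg
Cdkn2b: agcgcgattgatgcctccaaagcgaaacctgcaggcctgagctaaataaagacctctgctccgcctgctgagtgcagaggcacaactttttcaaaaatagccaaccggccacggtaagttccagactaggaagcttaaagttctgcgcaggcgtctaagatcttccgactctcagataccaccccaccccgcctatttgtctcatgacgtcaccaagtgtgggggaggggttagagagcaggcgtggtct

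In the Cdkn1a window, which lies before a start 2790 bases upstream of the second start, the 20-base site spans positions -51 to -32 and a further decamer spans -73 to -64. The Ccng1 window holds a 20-base site at -195 to -176. Such a site was found in 25 of 32851 promoter windows of this length (0.0761%), and the mismatch allowance was set after these sequences had been seen. The exact decamer, which overlaps the 20-base site, was found in 7.13% of all windows and in those of 4 of the 8 genes with an entry, namely Cdkn1a, Ccng1, Mdm2 (-186 to -177) and Cdkn2d (-102 to -93). TTTNNCGC occurred in 4.28% of all windows and in the windows of Mdm2 (-156 to -149) and Cdkn2a. For Cdkn2a it spans -99 to -92 in the upstream window and -244 to -237 in the window before the second start. The Cdkn2b window held no p53 decamer or site and no TTTNNCGC, so it has no capitals. The upstream Cdkn2a window held 40 CpG dinucleotides, a number reached by 1.31% of windows, whereas the upstream Cdkn1a window held 2. The windows before the second starts, not shown, differed less, with 7 for Cdkn2a and 19 for Cdkn1a, reached by 46.3% and 19.7% of windows. The second Cdkn1a window held no p53 decamer. A match describes letters only and was not tested for binding, and Cdkn1c had no entry in the promoter table.

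Between days 4 and 7, 1 of the 9 genes rose (Cdkn1c) and 1 fell (Ccng1), when 13.4% of all genes were called, 6.98% higher and 6.47% lower. Between days 7 and 21, 5 rose (Cdkn1a, Cdkn2a, Cdkn2b, Mdm2 and Ccng1) and 0 fell, against 23% of all genes called, 12.4% higher and 10.7% lower. Against day 4, 4 were higher on day 21 (Cdkn1a, Cdkn1c, Cdkn2a and Cdkn2b) and 0 lower, against 29.1% called, 15% higher and 14.1% lower. The median log2 change of the 9 was -0.16, 0.50 and 0.55 in these comparisons, and that of all genes was -0.01, -0.03 and -0.03. All genes include dim ones, whereas 8 of the 9 were above background on each day. With only the 13196 genes above background on a day fitted, 27.2%, 41.3% and 50.5% of genes were called. Beside these shares, the calls among the 9 by day 7 and for day 21 against day 4 were no excess. The 5 of 9 called after day 7 were a larger share than 41.3%.

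The 3 arrays of a day did not overlap those of the day compared for 4 of the 9 genes between days 4 and 7, with Cdkn1c higher and Cdkn1a, Mdm2 and Ccng1 lower on day 7. This held for 29.9% of all genes, 14% higher and 15.9% lower. It held for 5 of the 9, all higher, between days 7 and 21, against 35.5% of all genes (17.1% higher and 18.4% lower). For day 21 against day 4 it held for 5 of the 9, all higher, against 40.4% of all genes (19.4% higher and 21% lower). Of all calls, 53.7% were higher for day 21 against day 7 and 51.6% against day 4. These shares were 37.6% and 36.8% with arrays centred on their medians, which moved the median change of all genes to -0.13 and -0.14. Each pair of comparisons shares the 3 arrays of a day, so they are not independent.

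Cdkn1a, which encodes p21, the main inhibitor induced by p53, was the gene of the group with the largest rise. Its log2 signals were 10.45, 10.35 and 10.40 on day 4, 10.21, 10.03 and 10.24 on day 7, and 11.82, 11.91 and 11.84 on day 21. The day 21 arrays stood apart above the other 6, and the day 7 arrays lay just below the day 4 arrays. Between days 7 and 21 Cdkn1a rose 3.25-fold, a log2 change of 1.70 ± 0.09 (SE; limma adjusted p = 6.43e-07), and 98.3% of genes changed by less or fell. Against day 4 the rise was 2.75-fold (1.46 ± 0.09, adjusted p = 1.52e-06). The difference of day 7 from day 4, -0.24 ± 0.09, did not pass (adjusted p = 0.140), and passed with limma's trended and robust variance (adjusted p = 0.0444).

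Cdkn1b encodes p27, an inhibitor that accumulates in resting cells and is controlled largely at the protein level. Its signals were 7.20, 7.05 and 7.18 on day 4, 7.44, 7.15 and 7.00 on day 7, and 7.36, 7.18 and 7.35 on day 21. The 3 days overlapped, and none of the comparisons passed. The 95% intervals of its log2 change ran from -0.22 to 0.33 for day 7 against day 4 and from -0.18 to 0.38 for day 21 against day 7.

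Cdkn1c, which encodes p57, is an imprinted gene expressed from the maternal allele and restrains growth of embryo and placenta. It was the member that rose early. Signals were 6.94, 7.00 and 7.37 on day 4, 8.15, 8.09 and 7.99 on day 7, and 8.09, 7.97 and 7.97 on day 21. All 6 later arrays were above the 3 day 4 arrays, and days 7 and 21 overlapped. The rise by day 7 was 1.97-fold (0.98 ± 0.12, adjusted p = 3.61e-04), the change after day 7 was -0.07 ± 0.12 (adjusted p = 0.746), and the net rise was 1.87-fold (0.91 ± 0.12, adjusted p = 2.71e-04). By day 7, 9 of the 12 endoderm markers also rose and 0 fell. Of 8 cardiac and skeletal muscle markers, 3 rose and 0 fell, namely Tnnc1 (3.21 ± 0.22), Tnnt2 (1.26 ± 0.09) and Actc1 (0.65 ± 0.15). The sum of the muscle markers' linear signals went from 989 to 1101 on the day 4 arrays to 2831 to 3243 on the day 7 arrays and 1348 to 1417 on the day 21 arrays. Tnnc1, with means of 7.68, 10.89 and 8.41 on days 4, 7 and 21, weighed most in the day 7 sum. Tnni3 changed by -0.42 ± 0.15 by day 7, which did not pass. The part of these cell types in the rise of Cdkn1c was not tested.

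**Figure D1:**
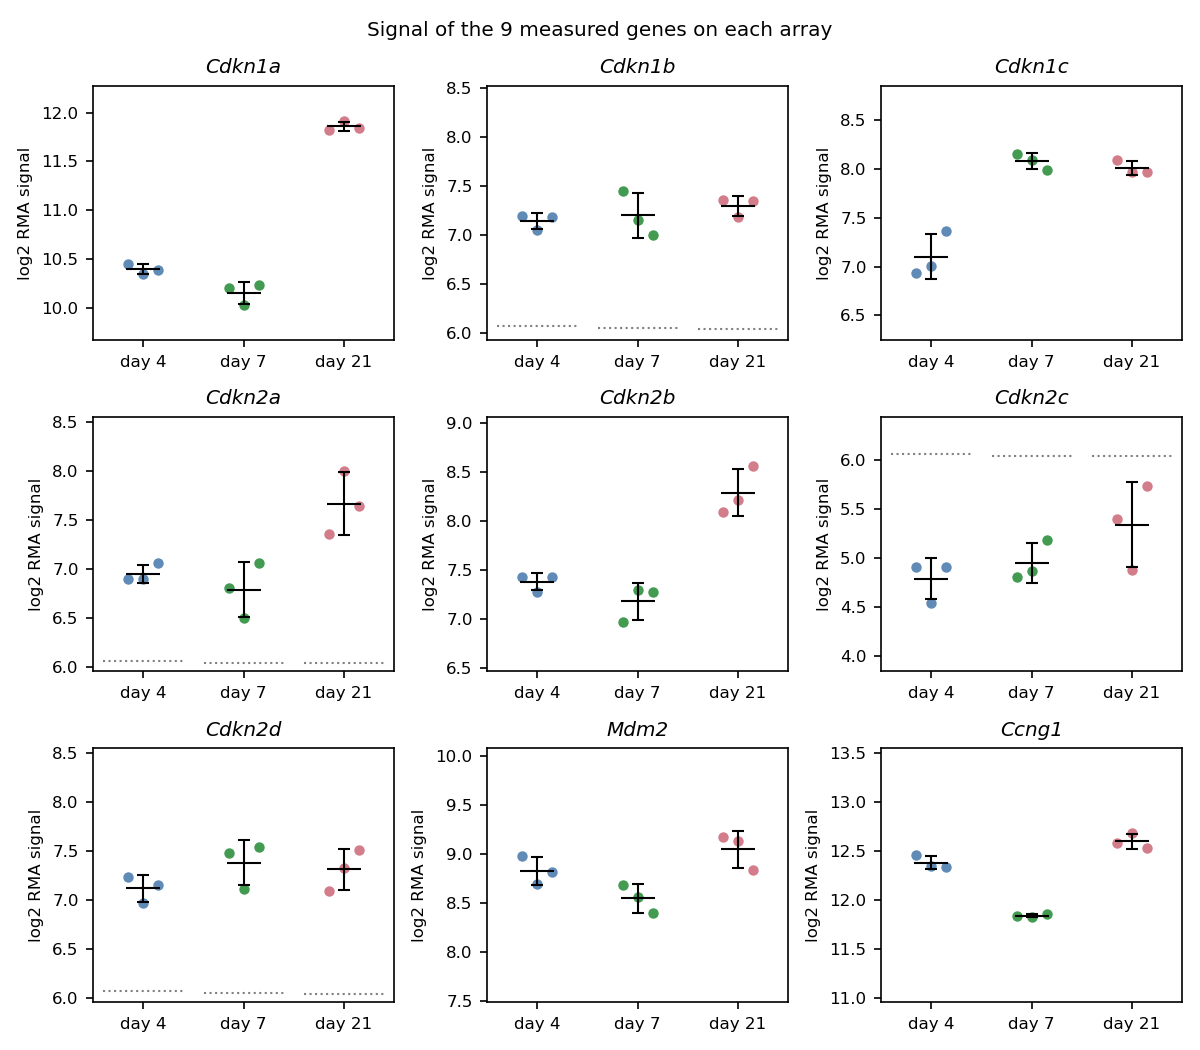
Log2 RMA signal of the 9 measured genes on each array, with 1 panel per gene, days on the horizontal axis, a point per array, and a bar with whiskers for the mean and SD of 3 arrays. Each panel spans the same range of log2 units at its own level, and dotted lines mark background where it falls in range. Cdkn1a, Cdkn2a, Cdkn2b, Ccng1 and Mdm2 had their highest means on day 21 and their lowest on day 7, where Ccng1 alone was called lower than on day 4. Cdkn1c was low on day 4 alone.

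Among INK4 genes, the pair at the shared chromosome 4 locus rose late. Cdkn2b encodes p15, which is induced by TGF-beta in epithelial cells. Its signals were 7.42, 7.28 and 7.43 on day 4, 6.96, 7.30 and 7.27 on day 7, and 8.09, 8.21 and 8.56 on day 21. Every day 21 array was above the other 6, which overlapped by day. Cdkn2b rose 2.16-fold between days 7 and 21 (1.11 ± 0.14, adjusted p = 2.20e-04) and 1.88-fold against day 4 (0.91 ± 0.14, adjusted p = 6.32e-04).

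Cdkn2a encodes p16 and, from another first exon and reading frame, p19ARF, which inhibits Mdm2. The probe set was read as a single value, so these transcripts are not separated. Its signals were 6.90, 6.90 and 7.06 on day 4, 6.80, 6.50 and 7.06 on day 7, and 7.36, 8.01 and 7.65 on day 21. The day 21 arrays were again the 3 highest, with a wider spread than for Cdkn1a. Cdkn2a rose 1.84-fold between days 7 and 21 (0.88 ± 0.18, adjusted p = 0.00451) and 1.64-fold against day 4 (0.72 ± 0.18, adjusted p = 0.0113). For Cdkn2a and Cdkn2b the difference of day 7 from day 4 did not pass, at -0.16 ± 0.18 and -0.20 ± 0.14.

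The other INK4 genes gave no call. Cdkn2d, which encodes p19INK4d, had means of 7.11 ± 0.14, 7.38 ± 0.23 and 7.31 ± 0.21 (SD, n = 3 arrays) on days 4, 7 and 21, with overlapping arrays. The 95% interval of its log2 change was -0.07 to 0.59 by day 7 and -0.39 to 0.26 after it. Cdkn2c, which encodes p18, had means of 4.79 ± 0.21, 4.95 ± 0.21 and 5.33 ± 0.43, below background on each of the 9 arrays. Its difference of day 21 from day 4, 0.55 ± 0.21, missed the threshold (adjusted p = 0.0733), and without day 21 replicate 2, the lowest array of that day, it was 0.78 (adjusted p = 0.00947). A change among signals under background has no reliable size. Without the same array its change after day 7 was 0.62 (adjusted p = 0.0355) in place of 0.39 ± 0.21 (adjusted p = 0.232).

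Ccng1 encodes cyclin G1, a p53 target that recruits a phosphatase to Mdm2. Its signals were 12.46, 12.35 and 12.34 on day 4, 11.84, 11.83 and 11.86 on day 7, and 12.58, 12.68 and 12.54 on day 21. The days did not overlap, with day 7 lowest and day 21 highest. Ccng1 fell by 0.54 on the log2 scale by day 7 (SE 0.09, adjusted p = 0.00220), when 4.99% of genes had a more negative change. It then rose 1.69-fold (0.76 ± 0.09, adjusted p = 1.38e-04). Day 21 was 0.22 ± 0.09 above day 4, which did not pass (adjusted p = 0.102) and passed with the trended and robust variance (adjusted p = 0.0148).

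Mdm2, the ubiquitin ligase of p53, had signals of 8.97, 8.69 and 8.81 on day 4, 8.69, 8.56 and 8.39 on day 7, and 9.17, 9.14 and 8.83 on day 21. Day 7 lay below days 4 and 21, by a narrow margin from day 4, and days 4 and 21 overlapped. The rise between days 7 and 21 was 1.42-fold (0.50 ± 0.13, adjusted p = 0.0171). This call was lost without day 7 replicate 3 (0.42, adjusted p = 0.0689), without day 21 replicate 1 (0.44, adjusted p = 0.0639), without day 21 replicate 2 (0.46, adjusted p = 0.0617) and with arrays centred on their medians (0.40, adjusted p = 0.0502). The difference of day 7 from day 4, -0.28 ± 0.13, did not pass (adjusted p = 0.218).

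**Figure D2:**
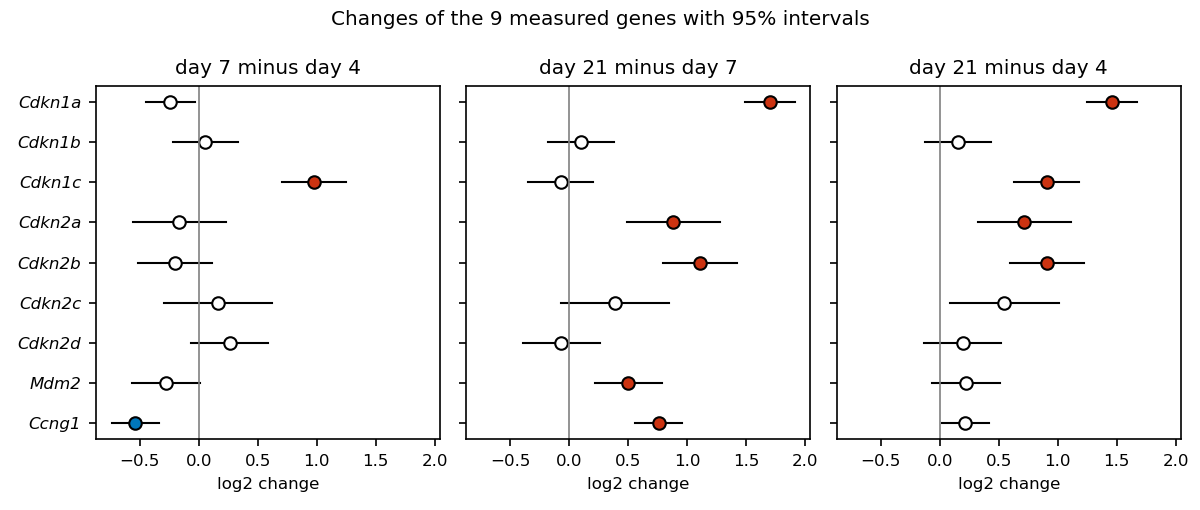
Log2 change of each measured gene (horizontal axis) in the 3 comparisons, with 95% intervals from the limma model. Filled points passed the test (red higher, blue lower) and open points did not. Cdkn1c rose by day 7 at 0.98, Cdkn1a by 1.70 after day 7, and Cdkn1b and Cdkn2d have intervals across 0 throughout.

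The rises of Cdkn1a, Cdkn2a and Cdkn2b at day 21 came with the stromal and squamous markers given above, whose part in them was not tested. On day 21 replicates 1, 2 and 3 the mean log2 signal of the 9 stromal markers was 9.64, 9.18 and 8.77. The squamous markers averaged 10.16, 10.04 and 10.02. On the same arrays Cdkn1a was 11.82, 11.91 and 11.84, Cdkn2a 7.36, 8.01 and 7.65, and Cdkn2b 8.09, 8.21 and 8.56. With 3 arrays in a day, no link between these genes and the markers can be read from the values. Endoderm markers averaged 9.14 to 9.25 on the day 7 arrays and 9.09 to 9.10 on the day 21 arrays, but their members went opposite ways. Of the 12, 8 fell, among them Apob (-2.50 ± 0.16), Cubn (-2.17 ± 0.16) and Hnf4a (-1.03 ± 0.18), and 2 rose, Afp (2.47 ± 0.11) and Alb (6.19 ± 0.15), the latter from below background.

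Lists of genes around the inhibitors were written from general knowledge, and 172 of their 183 genes were measured. The shares of all genes given above and below include dim genes, while most list genes were above background. With only the 13196 genes above background on a day fitted, the shares called were larger. They were 27.2% by day 7, 41.3% after it and 50.5% for day 21 against day 4. Of 26 measured p53 target genes other than Cdkn1a, Mdm2 and Ccng1, 9 fell and 2 rose by day 7, and 15 did not pass (42.3% called against 13.4% of all genes), with a median of -0.25. Plk2, a polo-like kinase, went from 8.35 ± 0.28 to 7.13 ± 0.16 (SD), a change of -1.22 ± 0.14 (SE). Pmaip1, which encodes the pro-apoptotic protein Noxa, changed by -1.01 ± 0.18, while Cd82, a membrane tetraspanin, rose by 0.88 ± 0.11. Only 7 were called without day 4 replicate 3 or without day 7 replicate 2.

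Between days 7 and 21, 14 of these 26 rose, 1 fell and 11 did not pass (57.7% called against 23% of all genes), with a median of 0.48 against -0.03 for all genes. Plk2 rose by 2.67 ± 0.14 (6.37-fold), Btg2, an anti-proliferative gene, by 2.37 ± 0.12, and Dcxr, a xylulose reductase, by 1.29 ± 0.12. The gene that fell was Ppm1d, the phosphatase that turns off p53 signalling (-0.76 ± 0.10), which had risen by 0.40 ± 0.10 by day 7. It is named after its values were seen. Against day 4, 9 were higher and 1 lower (38.5% called against 29.1%), led by Btg2 (2.51 ± 0.12), Plk2 (1.45 ± 0.14) and Polk, a translesion polymerase (1.04 ± 0.13). In the fit of genes above background, 10 of 24 were higher and 1 lower, where 50.5% of the fitted genes were called. The apoptosis gene Bbc3, which encodes Puma and is named after its values were seen, had means of 5.92, 5.79 and 5.83, below background on each day.

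Of 21 regulators and relatives of p53, 0 rose and 4 fell by day 7 and 4 rose and 2 fell between days 7 and 21, or 19% and 28.6% called, near the 13.4% and 23% of all genes. On day 21, 6 were higher and 7 lower than on day 4 (61.9% called against 29.1% of all genes). In the fit of genes above background, 6 of 20 were higher and 7 lower, where 50.5% of the fitted genes were called. By day 7 the falls included Rpl5 (-0.60 ± 0.17), a ribosomal protein that binds Mdm2, Trp53bp1 (-0.54 ± 0.11), a DNA break response protein, and Atm (-0.53 ± 0.14), a damage-activated kinase. After day 7 Trp63, the p53 relative of squamous epithelium, rose by 1.16 ± 0.10 from below background, and Hipk2, a kinase that phosphorylates p53, by 0.84 ± 0.12. Chek1, the replication checkpoint kinase, fell by 0.77 on the log2 scale. Sirt1, a deacetylase that acts on p53, was lower on day 21 than on day 4 by 1.06 ± 0.09. The 4 calls by day 7 became 2 without day 4 replicate 1, and 1 without day 4 replicate 2, day 7 replicate 1 or day 7 replicate 3. The 13 calls for day 21 against day 4 became 8 without day 21 replicate 2.

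**Figure D3:**
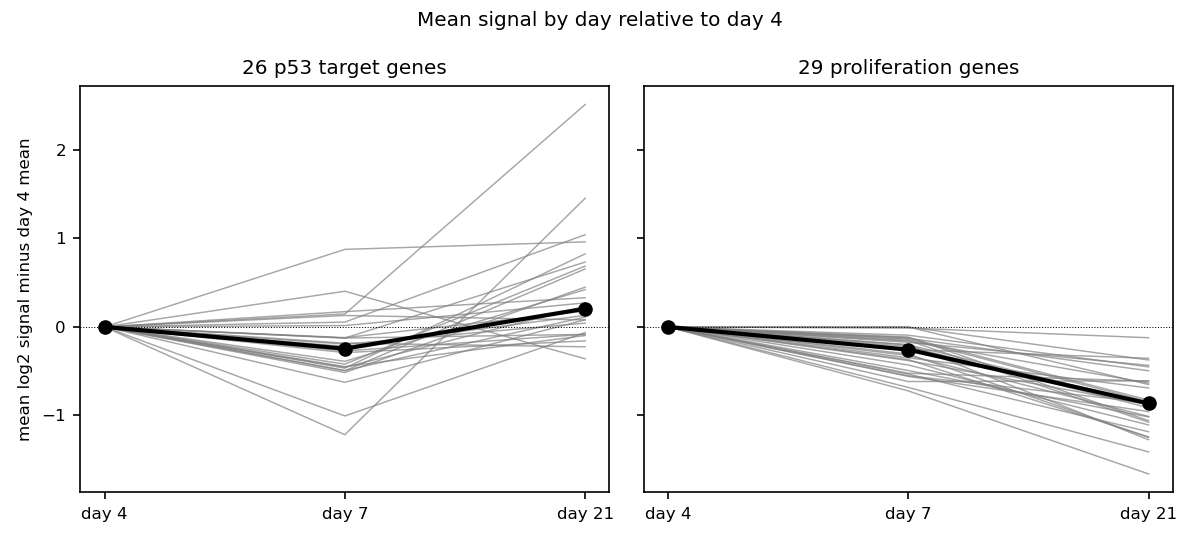
Mean log2 signal by day minus the day 4 mean for 26 p53 target genes (left) and 29 proliferation genes (right). Days are evenly spaced, grey lines are genes and the black line is their median. The p53 target median was -0.25 on day 7 and 0.21 on day 21, and the proliferation median was -0.26 and -0.86.

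Transcripts of cell division fell over the same days. Of 29 proliferation genes, 9 fell by day 7, 22 fell between days 7 and 21, 28 were lower on day 21 than on day 4, and 0 rose in any comparison (31%, 75.9% and 96.6% called against 13.4%, 23% and 29.1% of all genes). The gene not lower on day 21 was Prc1, a midzone spindle protein named after its values were seen (-0.12 ± 0.12). Bub1, a spindle checkpoint kinase, changed by -0.72 ± 0.14 by day 7 and by a further -0.94 ± 0.14 after it, to a day 21 mean of 7.34 ± 0.29 (SD). Rrm2, a subunit of ribonucleotide reductase, went from 8.58 ± 0.14 to 7.89 ± 0.09 and 7.16 ± 0.24. Mcm5, Mcm7 and Mcm2 of the replicative helicase changed by -1.07 ± 0.11, -0.94 ± 0.11 and -0.94 ± 0.09 after day 7. Tk1, the thymidine kinase of S phase, fell by 0.62 on the log2 scale by day 7. All 29 were above background on day 21, and the list's medians of -0.26, -0.65 and -0.86 in the 3 comparisons stand beside -0.01, -0.03 and -0.03 for all genes.

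Genes for cyclins, their kinases and proteins that act on these kinases, not all of them targets of the inhibitors, moved in both directions. Of 19, 2 rose and 3 fell by day 7 (26.3% called against 13.4% of all genes), and 3 rose and 7 fell between days 7 and 21 (52.6% against 23%). On day 21, 4 were higher and 8 lower than on day 4 (63.2% against 29.1%). Without dim genes in the fit, 2 of the 19 rose and 5 fell by day 7, and 3 rose and 8 fell after it. Against day 4, 4 were higher and 11 lower on day 21 in that fit, which called 27.2%, 41.3% and 50.5% of its genes. Ccnd1, a D-type cyclin, fell from 9.23 ± 0.03 to 7.50 ± 0.19 by day 7 and rose again to 9.08 ± 0.07. Ccnd2, another D-type cyclin, went from 8.81 ± 0.12 on day 7 to 12.29 ± 0.09 on day 21, a rise of 11.2-fold (3.48 ± 0.11, adjusted p = 1.91e-08). Cdk6, the kinase that INK4 proteins bind, changed by -1.27 ± 0.16 and then rose by 2.08 ± 0.16. In contrast, Ccne1, cyclin E1, was lower on day 21 than on day 4 by 1.31 ± 0.13 and Ccna2, cyclin A2, by 0.99 ± 0.14. The 5 calls by day 7 became 2 without day 4 replicate 1 or day 7 replicate 1, and 3 without day 4 replicate 2 or 3.

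Of 19 genes of the RB and E2F families, 0 rose and 3 fell by day 7 (E2f7, Rbl1 and E2f5), or 15.8% called against 13.4% of all genes. After day 7, 2 rose and 8 fell (52.6% against 23%), and on day 21, 2 were higher and 11 lower than on day 4 (68.4% against 29.1%). With 18 of them in the fit of genes above background, 4 fell by day 7, and 2 rose and 10 fell after it. Against day 4, 2 were higher and 12 lower on day 21 in that fit, which called 27.2%, 41.3% and 50.5% of its genes. The rises after day 7 were those of the pocket proteins Rbl2, p130, which holds E2F targets silent in resting cells (6.82 ± 0.26 to 8.61 ± 0.19, a change of 1.78 ± 0.15), and Rb1 (0.67 ± 0.11). Rb1 is named after its values were seen. E2f7 changed by -0.91 ± 0.10 and Mybl2, a B-MYB activator of mitotic genes, by -0.76 ± 0.11. Without day 4 replicate 1, 2 or 3, or day 7 replicate 1 or 3, the 3 calls by day 7 became 1.

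Transcripts for proteins that destroy the inhibitors were also measured. Of 13 genes for ubiquitin ligases of CDK inhibitors, 0 passed limma's adjusted test by day 7, with 4 at an unadjusted p under 0.05 and 1 called when dim genes were left out of the test. Between days 7 and 21, 6 fell and 0 rose (46.2% called against 23% of all genes), and on day 21, 8 were lower and 1 higher than on day 4 (69.2% against 29.1%). Without dim genes, 7 of the 13 fell after day 7, and 8 were lower and 1 higher on day 21 than on day 4. That fit called 41.3% and 50.5% of its genes in these comparisons. Skp2, which targets p27 and p21, went from 9.84 ± 0.02 to 9.06 ± 0.08 (-0.79 ± 0.10), and Cdc20, the mitotic activator of the anaphase-promoting complex, changed by -1.05 ± 0.14. Cul4b, a cullin, changed by -0.61 ± 0.17. Without day 7 replicate 1 or 2, or day 21 replicate 3, the 6 calls after day 7 became 3.

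Polycomb repressors, which silence Cdkn2a and Cdkn2b in many young cells, gave 1 rise and 4 falls among 15 by day 7 (33.3% called against 13.4% of all genes) and 1 rise and 3 falls after it (26.7% against 23%). On day 21, 2 were higher and 8 lower than on day 4 (66.7% against 29.1%). All 15 were in the fit of genes above background, with 1 rise and 4 falls by day 7 and 1 rise and 5 falls after it. Day 21 against day 4 gave 2 higher and 8 lower there, where 27.2%, 41.3% and 50.5% of the fitted genes were called. Ezh2, the main methyltransferase of the complex, changed by -0.76 ± 0.12 after day 7, from 11.51 ± 0.08 to 10.75 ± 0.19, and its relative Ezh1 rose by 0.93 ± 0.10 by day 7. Phc3 rose by 0.94 ± 0.11 after day 7, whereas Cbx7 changed by -0.49 ± 0.11. With arrays centred on their medians 7 genes were called after day 7 in place of 4. Phc1 was lower on day 21 than on day 4 by 1.08 ± 0.13.

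Inputs that act on the inhibitor genes included TGF-beta, an inducer of Cdkn2b and Cdkn1a, and Myc, a repressor of both. Of 20 such genes, 3 rose and 3 fell by day 7 (30% called against 13.4% of all genes). After day 7, 8 rose and 3 fell, and on day 21, 8 were higher and 3 lower than on day 4 (55% called in each, against 23% and 29.1%). All 20 were above background on a day. Their counts were the same in the fit of genes above background, where 27.2%, 41.3% and 50.5% of the fitted genes were called. Myc changed by -0.93 ± 0.10 by day 7 and rose by 0.39 ± 0.10 after it. After day 7 Tgfb3 rose by 3.48 ± 0.16 from below background, the receptor Tgfbr2 by 1.76 ± 0.13, and Klf4, a transcription factor that activates Cdkn1a, by 1.47 ± 0.18. The TGF-beta ligands did not move alike, since Tgfb1, named after its values were seen, fell by 0.98 on the log2 scale in the same interval.

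Around Cdkn1c in its imprinted region of chromosome 7, which is wider than the domain of Cdkn1c itself, 3 of 10 measured neighbours rose by day 7 and 0 fell (30% called against 13.4% of all genes). Igf2, a paternally expressed growth factor, rose by 0.99 ± 0.09, Kcnq1ot1, the antisense RNA of the control region near Cdkn1c, by 0.61 ± 0.16, and Slc22a18 by 0.57 ± 0.15 from below background. Between days 7 and 21, when Cdkn1c held its level within 95% limits of -0.35 to 0.20, 4 rose and 1 fell (50% called against 23%). The counts by day 7 and after it were the same with 9 neighbours in the fit of genes above background. That fit called 27.2% and 41.3% of its genes. Igf2 rose a further 0.94 ± 0.09 and Osbpl5 rose by 1.41 ± 0.18 from below background. Phlda2, a maternally expressed growth restrainer, fell from 8.90 ± 0.19 to 6.86 ± 0.28. Without day 4 replicate 3, day 7 replicate 1 or day 7 replicate 2, the 3 calls by day 7 became 1.

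**Figure D4:**
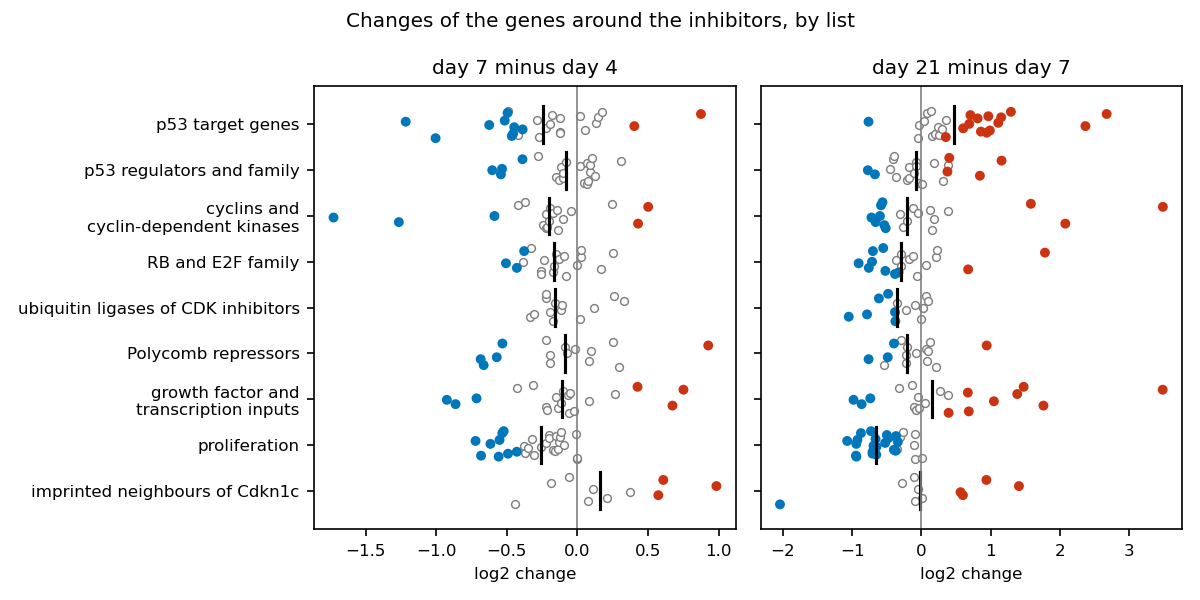
Log2 changes (horizontal axis) of the measured genes of 9 lists by day 7 (left) and after it (right), with a point per gene at an arbitrary height within its row and a black bar at the median. Red and blue points passed the test. p53 target genes have medians of -0.25 and 0.48, and proliferation genes have medians of -0.26 and -0.65.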

How the data were processed

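Total RNA of sorted cells was labelled with an Affymetrix kit for very small inputs, per the labels' protocols. The authors deposited log2 signals per probe set for each array. Per the submitters' processing notes, the tools were Expression Console and RMA, with no version given. RMA brings arrays to a common distribution, so a shift shared by all transcripts is largely removed. Of 34365 probe sets, 23521 had 1 symbol in the platform annotation, 1814 had several and 9030 none. The brightest probe set per gene was kept, giving 22180 genes.

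A limma 3.58.1 model (R 4.3.3, lmFit and eBayes, a mean per day, 6 residual degrees of freedom) was fitted to all genes and 9 arrays. P-values are two-sided and Benjamini-Hochberg adjusted over all genes of a comparison, with no minimum fold. The code was tested on simulated data. Arrays give no read depth; precision is limited by their number. The members, lists, markers and background measure were chosen with earlier results of these data known. From each list, the text names up to 3 called genes per comparison with the largest changes and no overlap between days, or up to 2 where none was called, and all members. Motifs were searched in the 250 bases before 32851 RefSeq starts. Alternatives were a replicate block, other probe set summaries, scalings, filters and variance models, 2-day fits, and leaving out each array.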

Additional observations from a re-analysis of the deposited data

How the results depend on the processing

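Over 16 alternatives, the number of members called was 2 to 3 by day 7, 4 to 5 after it and 4 to 5 for day 21 against day 4. Leaving out single arrays gave 2 to 2, 4 to 5 and 4 to 5. Of the recomputed member changes, 414 kept their direction and their side of the threshold, 4 lost the call (Mdm2 after day 7), 6 gained it and 5 changed sign. The sign changes concerned uncalled values near 0. With arrays centred on their medians, Cdkn1b after day 7 was -0.00015. Leaving out single arrays moved Cdkn1b from -0.068 to 0.16 by day 7 and from -0.0011 to 0.22 after it, and Cdkn2d from -0.20 to 0.041 after day 7. In each case the cause was not tested. Cdkn2c for day 21 against day 4 also gained the call with repeated quantile normalization (adjusted p = 0.0492). Recomputed list counts moved by over 1.5 times in 26 cases and by less in 406. Besides those given above they included 14 proliferation genes by day 7 with the trended and robust variance and 10 p53 regulators after day 7 without dim genes.

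Whether replicate numbers shared across days pair the arrays is not settled. In their deviations, the 9 same-number pairs correlated at -0.05 to 0.26, and different-number pairs of arrays from different days at -0.176 to 0.074. Same-number pairs of days 7 and 21 lay above that second range, at 0.078, 0.139 and 0.263 for replicates 1, 2 and 3. Same-number pairs with day 4 were all negative. Of the 9 arrays, 6 correlated best with an array of their own number. With the replicate block, 2, 5 and 5 members were called, the added call being Cdkn2c for day 21 against day 4 (adjusted p = 0.0194). The block called 2895, 5041 and 6413 genes in all against 2983, 5106 and 6448.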

Other observations

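Genes whose signal followed a member most closely over the 9 arrays were taken from 6845 called genes above background. These correlations describe 3 days of 3 arrays each, which share their array, their scaling and the split by day, and no p is given. Cdkn1a was followed by Pla2g4a, a phospholipase that releases arachidonic acid (Pearson r = 0.998), and Adgrg1, an adhesion receptor (r = 0.996). Adgrg1 rose 8.09-fold between days 7 and 21, where Cdkn1a rose 3.25-fold. Ccng1 was followed by Hes1, a Notch target (r = 0.992), and Tlr3, a sensor of double-stranded RNA (r = 0.989). Tlr3 fell by 2.44 on the log2 scale by day 7 and then rose by 3.27 ± 0.13 (SE), where Ccng1 fell by 0.54 and rose by 0.76. Cdkn1c was followed by Muc13, an epithelial mucin (r = 0.990), and Rin2 (r = 0.989). Cdkn2b was followed by Kazn (r = 0.989) and Mmp23 (r = 0.981), Cdkn2a by Fbxl8 (r = 0.983) and Cep295nl (r = 0.982), and Mdm2 by Zscan29 (r = 0.965) and Vps13a (r = 0.961).

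On day 21 the highest Cdkn1a signals stood beside the highest Ccnd2 and Cdk6 signals, 12.29 ± 0.09 and 8.92 ± 0.32 (SD, n = 3 arrays), on arrays where 28 of 29 proliferation genes were lower than on day 4.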
